A study of Mus musculus with 12 samples.

Results

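Genes of the machinery that decides whether a cell is eaten, 10 in all, were followed in neutrophils of bone marrow (BM) and peritoneum (PT): Cd47, Cd24a, Sirpa, Pirb, Siglece, Ptpn6, Tyrobp, Btk, Lrp1 and Lgals3. They were chosen by name among the 28987 genes of the authors' table. The search by symbol found 10 rows for 9 of the genes, because Cd47 has a second row that the authors list as a pseudogene. Pirb stands in the table under its older symbol Lilrb3 and was found by its Ensembl ID, which gives 11 rows for the 10 genes. All 10 genes had at least 1 TPM in at least 3 libraries, as did 13456 genes in all. TPM is the share of a gene in the transcripts of a library, scaled to a common total.

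Wild-type (WT) FVB mice and FVB mice of genotype MRP8/BCL2+ (MRP8-Bcl2 mice, written Bcl2 in group names) all received 2 mL thioglycollate into the peritoneum, so that no group was left uninflamed. The labels place collection at 6 h, and the methods give other times. RNA came from cells of both sites of each mouse, sorted by flow cytometry, in 4 groups of 3 libraries, named by site and genotype (BM WT, BM Bcl2, PT WT and PT Bcl2). The transgene is human Bcl-2 under MRP8 control, a regulatory region of myeloid cells and not of neutrophils alone. The labels name macrophages as the source, whereas the design text names neutrophils. The columns carry no mouse number, so the p-values measure the spread between libraries, and no library could be paired with the other site of its mouse.

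A phagocyte weighs signals that promote uptake against signals that hold it back. CD47 on a target binds SIRPα on the phagocyte, while CD24 and class I molecules are read by sialic acid-binding lectins and by paired immunoglobulin-like receptors. The tails of these inhibitory receptors hold tyrosine motifs (ITIMs) that recruit the phosphatase SHP-1. Calreticulin, read through LRP1, promotes uptake, and receptors coupled to the adaptor DAP12 signal through kinases. Neutrophils carry many of these molecules themselves, as targets and as phagocytes.

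Ptpn6, which encodes SHP-1, moved most among the members over both genotypes. It rose from BM to PT in both genotypes, by 4.85-fold on average (95% interval of the log2 fold change 1.44 to 3.12). Cd47 fell from BM to PT by 2.58-fold over both genotypes, which passed the test on the deposited scale but not under every scaling between libraries. The other 8 members were called in no comparison, and no member was called between MRP8-Bcl2 and WT mice.

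The libraries themselves set limits to these values. Across the 6 WT libraries mouse Bcl2 ranged from 0.219 to 2.37 TPM. It reached 58.6 to 333 TPM in 5 Bcl2 libraries, but 0.695 TPM in library 9, which is labelled PT Bcl2 and was kept there. A set of 108 genes whose transcripts hold stretches of A or T alone, 31 bases or longer (homopolymer genes), took 8.93 to 24.1% of all TPM in the BM libraries of WT mice and 13.8 to 18.8% in those of MRP8-Bcl2 mice. In PT these genes took between 19.96 and 54.2% in WT and between 15.5 and 65.6% in Bcl2, and a large share on them lowers the TPM of all others. No member holds such a run. Over both genotypes 690 genes were called higher in PT and 1891 lower, against 1752 and 862 with libraries centred on their medians, 1233 and 1249 after quantile normalization and 1252 and 936 with the homopolymer genes left out. The median log2 fold change of all tested genes from BM to PT was 0.22 in WT, −1.02 in Bcl2 and −0.40 over both. Of 6 neutrophil markers, 1 was called higher in PT and 3 lower. Ly6g was at 51.5 to 1266 TPM in BM and 0 to 126 TPM in PT, with 0 in library 12 (PT WT), and S100a8 at 38874 to 153516 TPM in BM and 4495 to 27252 TPM in PT. Csf3r went the other way, from 132 to 1038 TPM in BM to 1839 to 4569 TPM in PT, while Cxcr2 and Itgam overlapped. The 12 macrophage markers summed to 13.8 to 127 TPM in BM and 36.1 to 148 TPM in PT, 2 of them called higher in PT, and Csf1r did not exceed 96.7 TPM in any library. The 7 markers of immature neutrophils summed to 10900 to 31134 TPM in BM and 78.2 to 185 TPM in PT, all 7 called lower, and the part of these markers in the results was not tested. In such bulk samples, fewer cells of a type and less RNA per cell cannot be told apart.

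Cd47 (ENSMUSG00000055447, chromosome 16, 49800533 to 49915010, GRCm38, plus strand) encodes the ligand that SIRPα reads. Cd47 stood at 306, 243 and 477 TPM in the BM WT libraries and at 90.4, 110 and 127 TPM in the PT WT libraries. All 3 PT WT libraries lay below all 3 BM WT libraries, as did 7.97% of all tested genes. In MRP8-Bcl2 mice it was at 306, 433 and 262 TPM in BM and at 397, 133 and 59.7 TPM in PT, where library 7 lay among the BM libraries and libraries 8 and 9 below them. The log2 fold change was −1.59 in WT (SE 0.60, adjusted p = 0.188 by limma) and −1.15 in Bcl2 (SE 0.60, adjusted p = 0.178), neither called. Over both genotypes it was −1.37 (SE 0.43, adjusted p = 0.0361 by limma), with p = 0.015 in an exact two-sided permutation test within genotypes, whose smallest possible p is 0.005. In that comparison 14.1% of all tested genes were called lower and 5.13% higher. Library 7 held the highest PT value, and without it the change in Bcl2 was −1.86 and was called (limma adjusted p = 0.0268). Library 9 held the lowest, and without it that change was −0.51 (adjusted p = 0.558).

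The call of Cd47 was sensitive to the scaling. With the homopolymer genes left out and TPM rescaled, Cd47 stood at 403, 310 and 524 TPM in BM WT, 184, 241 and 159 TPM in PT WT, 377, 519 and 304 TPM in BM Bcl2 and 470, 333 and 174 TPM in PT Bcl2. PT WT lay below BM WT without overlap, but the share of all genes that did so was not computed on this scale. PT Bcl2 and BM Bcl2 overlapped over most of their range. On that scale the mean change fell to −0.72 (SE 0.33, limma adjusted p = 0.149). Centring the libraries on their medians gave −0.68 (SE 0.51, adjusted p = 0.364), and neither was called. Centring also turned the change in Bcl2 alone to 0.44 (adjusted p = 0.709), while quantile normalization gave −1.41 over both genotypes (adjusted p = 0.0113) and a called change of −1.82 in WT (adjusted p = 0.0497). Leaving out library 2, 3, 4, 6, 8, 9, 10 or 11 ended the call over both genotypes at adjusted p between 0.0517 and 0.0836, and leaving out library 1, 5, 7 or 12 did not. Keeping low genes in the fit, or fitting without a trend in the variance, also ended it. The median of all tested genes was itself at −0.40, and Cd47 lay 0.97 below it, with 21.8% of the tested genes below Cd47.

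The second row named Cd47 (ENSMUSG00000079488) was at 101 TPM in library 6 of BM WT and at 0 to 3.52 TPM in the other 11 libraries. Adding it to Cd47 gave a mean change of −1.41 (limma adjusted p = 0.0345).

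Because Cd47 and Ptpn6 were the members called, the DNA before their starts is shown. Each line holds the 250 bases before the start of the first RefSeq entry (GRCm38.p6), written 5′ to 3′ along the gene. Capitals mark matches, on either strand, to GGG followed by any 5 bases and CC, a loose form of the NF-κB motif. The windows are chr16:49855404-49855653 on the plus strand for Cd47 and chr6:124738710-124738959 on the minus strand for Ptpn6.
Cd47: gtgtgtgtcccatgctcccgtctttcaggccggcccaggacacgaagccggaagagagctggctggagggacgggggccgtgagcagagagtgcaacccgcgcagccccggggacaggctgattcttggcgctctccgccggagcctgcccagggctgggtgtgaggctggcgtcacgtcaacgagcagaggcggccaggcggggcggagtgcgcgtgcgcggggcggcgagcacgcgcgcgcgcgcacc
Ptpn6: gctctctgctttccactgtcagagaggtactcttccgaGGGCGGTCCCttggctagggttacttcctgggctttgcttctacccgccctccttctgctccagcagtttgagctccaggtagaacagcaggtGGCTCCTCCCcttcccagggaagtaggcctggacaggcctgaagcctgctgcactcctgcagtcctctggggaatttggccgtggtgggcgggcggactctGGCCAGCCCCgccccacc

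The Cd47 window held no match to this motif, to the PU.1 core GAGGAA, to the AP-1 motif TGANTCA or to a C/EBP motif of TTGC, any 2 bases and AA. The Ptpn6 window held 4 matches to the NF-κB form, at 3 places because 1 stretch matches on both strands, and none to the other 3. Among 32817 promoter windows of the same length, 45.8% held the NF-κB form, 23.3% the PU.1 core, 6.75% the AP-1 motif and 9.57% the C/EBP motif, so that such a match is common. The Ptpn6 entry starts 5 bases from 1 of 11 annotated starts (GENCODE), at the upstream end of the gene. The DNA before starts farther downstream is not shown, and the values do not show which start the cells used.

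Cd24a (ENSMUSG00000047139, chromosome 10, 43578284 to 43584265) encodes a small glycosylated surface protein that sialic acid-binding lectins read. Its level was 805, 1137 and 904 TPM in BM WT and 681, 552 and 697 TPM in PT WT. PT WT lay below BM WT without overlap, as did 7.97% of tested genes, and the difference was not called (log2 fold change −0.55, SE 0.47, adjusted p = 0.609 by limma). In MRP8-Bcl2 mice it was at 704, 667 and 368 TPM in BM and at 1087, 595 and 362 TPM in PT, which overlapped. The BM Bcl2 libraries lay below the BM WT libraries without overlap, as did 1.17% of tested genes, and that difference was not called either (−0.75, SE 0.47, adjusted p = 0.723 by limma). Of its transcript sequence in runs of 31 bases, 4.98% also occurred in other genes, of which the only one in the table was at 0 in every library.

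Among the receptors, Sirpa (ENSMUSG00000037902, chromosome 2, 129592835 to 129632228) encodes SIRPα. Sirpa stood at 150, 135 and 129 TPM in BM WT, 93.2, 99.7 and 146 TPM in PT WT, 150, 119 and 196 TPM in BM Bcl2 and 74.1, 165 and 101 TPM in PT Bcl2. The highest library was 2.64-fold above the lowest, the narrowest range among the 10 genes, and BM and PT overlapped in both genotypes. The mean change from BM to PT was −0.41 (95% interval −1.12 to 0.31, limma adjusted p = 0.414), beside a median of −0.40 for all tested genes. Sirpa was 0.24 higher in PT with the homopolymer genes left out and 0.28 higher with centring, not called in either case.

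Pirb (ENSMUSG00000058818, chromosome 7, 3711409 to 3720391) encodes an inhibitory receptor for class I molecules. Pirb stood at 80.2, 162 and 182 TPM in BM WT, 93.7, 99.5 and 118 TPM in PT WT, 265, 120 and 122 TPM in BM Bcl2 and 150, 89.6 and 84.2 TPM in PT Bcl2, and the sites overlapped in both genotypes. The mean change was −0.48 (95% interval −1.25 to 0.30, limma adjusted p = 0.377). Pirb shared 44.1% of its sequence in runs of 31 bases with other genes, mainly the activating Pira family beside it, so its own level is uncertain. Pirb and the 9 rows that share at least 10% of its sequence summed to 198 to 575 TPM, with a mean change of 0.06 (adjusted p = 0.927).

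Siglece (ENSMUSG00000030474, chromosome 7, 43651070 to 43660161) encodes Siglec-E, a lectin for sialic acid with ITIMs. Its level was 94.3, 212 and 228 TPM in BM WT, 287, 167 and 175 TPM in PT WT, 161, 152 and 83.2 TPM in BM Bcl2 and 511, 300 and 167 TPM in PT Bcl2. In MRP8-Bcl2 mice all PT libraries lay above all BM libraries, as did 5.18% of tested genes, although library 9 (PT, 167 TPM) and library 1 (BM, 161 TPM) lay close together. The change there was 1.21 (95% interval 0.04 to 2.38, limma adjusted p = 0.122) and was not called, but it was called with centring (2.80, adjusted p = 0.0222) and with the homopolymer genes left out (1.99, adjusted p = 0.0214). Without library 7 it was 0.82 (adjusted p = 0.303). In WT it was 0.29 (95% interval −0.88 to 1.46) with overlapping groups, and the difference between the genotypes was not called (interaction 0.92, adjusted p = 0.524). With the homopolymer genes left out, the change over both genotypes was 1.40 and was called (limma adjusted p = 0.0159). With centring it was 1.44 (limma adjusted p = 0.0622) and after quantile normalization 0.74 (adjusted p = 0.187), neither called. Quantile normalization gave no call in Bcl2 either (1.40, limma adjusted p = 0.109).

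Ptpn6 (ENSMUSG00000004266, chromosome 6, 124720707 to 124738714, minus strand) encodes SHP-1, the phosphatase that ITIMs of SIRPα, PIR-B and Siglec-E recruit. Ptpn6 stood at 130, 96.1 and 104 TPM in BM WT and at 1136, 605 and 717 TPM in PT WT. In MRP8-Bcl2 mice it was at 177, 245 and 167 TPM in BM and at 1560, 556 and 297 TPM in PT. All 6 PT libraries lay above all 6 BM libraries, as did 2.58% of tested genes, and the lowest of them was library 9. The log2 fold change was 2.84 in WT (SE 0.56, adjusted p = 0.0139 by limma) and 1.71 in Bcl2 (SE 0.56, adjusted p = 0.0407), called in both. Of all tested genes, 14.9% lay above BM without overlap in WT. Those called higher came to 1.59% in WT and 2.31% in Bcl2, and those called lower to 1.22% and 19.1%. Over both genotypes it was 2.28 (SE 0.39, adjusted p = 0.00132 by limma, exact permutation p = 0.005, the smallest possible), and 97.4% of tested genes lay below it.

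The mean change of Ptpn6 was called under every setting tried and without each library in turn, between 1.96 and 2.97. The calls within a genotype were less firm. Without library 10 the change in WT was 2.58 (limma adjusted p = 0.0800), and with centring it was 2.63 (adjusted p = 0.0545). In Bcl2 the call was lost without library 1, 2, 3, 5, 7, 8 or 11, at adjusted p between 0.051 and 0.126, and the change was smallest, 1.07, without library 7. Keeping low genes in the fit, fitting without a trend or fitting the Bcl2 groups alone ended it as well. The difference between the genotypes was not called (interaction −1.13, SE 0.79, limma adjusted p = 0.448). Ptpn6 was higher in BM Bcl2 than in BM WT without overlap, as were 10% of tested genes, by 0.82 (SE 0.56, adjusted p = 0.726 by limma). With the homopolymer genes left out, it was at 115 to 171 TPM in BM WT, 194 to 294 TPM in BM Bcl2, 896 to 2308 TPM in PT WT and 863 to 1846 TPM in PT Bcl2. Gm20531, which shares 5.78% of the Ptpn6 sequence in runs of 31 bases, was at 0 to 9.48 TPM.

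**Figure D1:**
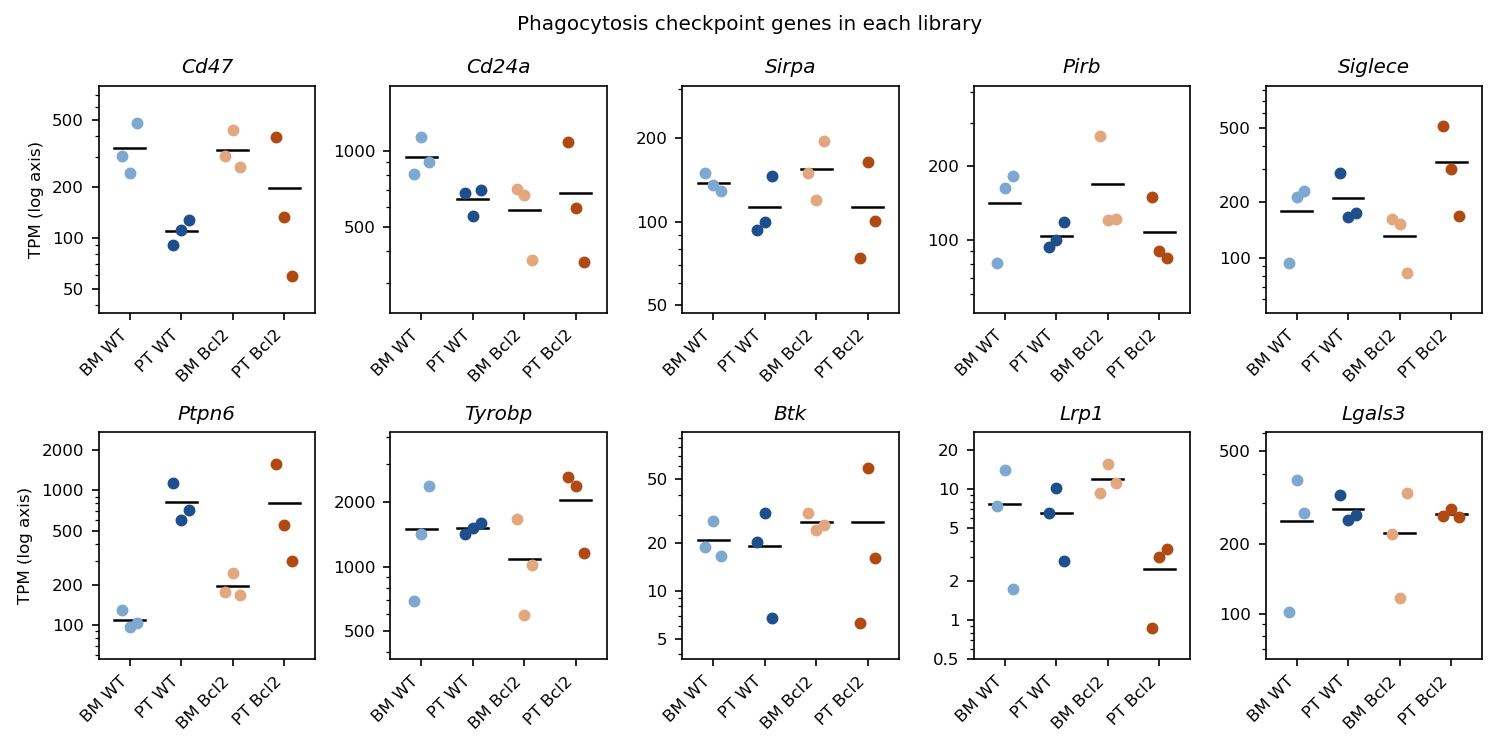
TPM of each of the 10 genes in the 12 libraries on log axes that differ between panels, with 1 point per library and a bar at the mean of the 3 libraries of a group. Ptpn6 is at 297 TPM or more in all PT libraries and at 245 TPM or less in all BM libraries, while the other panels overlap between BM and PT in at least 1 genotype.

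The ratio of Ptpn6 to Cd47 within a library is the same under any scaling by a common factor per library, which quantile normalization is not. In WT mice it was 0.219 to 0.424 in BM and 5.48 to 12.6 in PT, and in MRP8-Bcl2 mice 0.566 to 0.639 in BM and 3.93 to 4.97 in PT. This pair was chosen after the values were seen, so the ratio is given as a description. Library 7, with high Cd47, and library 9, with low Ptpn6, had ratios of 3.93 and 4.97, near library 8 at 4.19. In the ratio of Cd47 to Sirpa library 7 did stand apart, at 5.36 against 0.806 and 0.592 in libraries 8 and 9. That ratio was 0.874 to 1.11 in PT WT and 1.34 to 3.70 in BM.

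**Figure D2:**
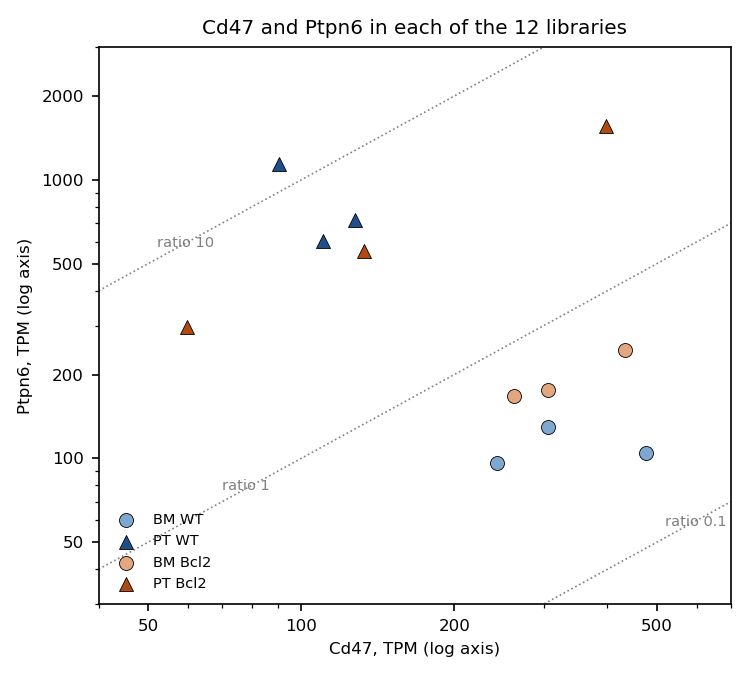
Ptpn6 against Cd47, both in TPM on log axes, with 1 point per library, circles for BM and triangles for PT, and dotted lines of equal ratio. The 6 BM libraries lie at ratios of 0.219 to 0.639 and the 6 PT libraries at 3.93 to 12.6.

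On the activating side, Tyrobp (ENSMUSG00000030579, chromosome 7, 30413760 to 30417585) encodes DAP12, an adaptor whose tyrosine motif (ITAM) calls in the kinase SYK. It was the most abundant member, with a mean of 1537 TPM over the 12 libraries and rank 38 among all genes. Tyrobp stood at 694, 1428 and 2368 TPM in BM WT, 1419, 1517 and 1594 TPM in PT WT, 1663, 599 and 1014 TPM in BM Bcl2 and 2612, 2376 and 1164 TPM in PT Bcl2. The PT WT libraries lay within the range of BM WT, and the Bcl2 groups overlapped through library 9. The mean change was 0.56 (95% interval −0.24 to 1.36, limma adjusted p = 0.306), and with the homopolymer genes left out it was 1.22 and was called (adjusted p = 0.0264). In Bcl2 it was 0.94 (limma adjusted p = 0.208), not called, but it was called with centring (2.53, adjusted p = 0.0325) and with the homopolymer genes left out (1.72, adjusted p = 0.0343). Tyrobp thus exceeded Ptpn6 by 2.44 to 22.7-fold in BM libraries and by 1.25 to 4.27-fold in PT libraries, both as TPM.

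Btk (ENSMUSG00000031264, chromosome X, 134542336 to 134583570) encodes a TEC-family kinase. Btk stood at 18.8, 27.5 and 16.4 TPM in BM WT, 20.2, 30.5 and 6.75 TPM in PT WT, 30.8, 24.2 and 25.8 TPM in BM Bcl2 and 6.25, 58.4 and 16.0 TPM in PT Bcl2. The BM Bcl2 libraries lay close together while PT Bcl2 spanned both the lowest and the highest value of the gene. The mean change was −0.41 (95% interval −1.56 to 0.74, limma adjusted p = 0.622), and an estimated 18 to 259 reads stood behind a value.

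Lrp1 (ENSMUSG00000040249, chromosome 10, 127538161 to 127621148) encodes the receptor through which surface calreticulin is read. It was the least abundant member, at 7.42, 13.9 and 1.73 TPM in BM WT, 6.53, 10.2 and 2.83 TPM in PT WT, 9.42, 15.6 and 11.1 TPM in BM Bcl2 and 0.865, 3.02 and 3.47 TPM in PT Bcl2. The WT groups overlapped, and in MRP8-Bcl2 mice all PT libraries lay below all BM libraries, as did 32.6% of tested genes. The change in Bcl2 was −1.99 (95% interval −3.66 to −0.31, limma adjusted p = 0.0821) and was not called. It was −0.40 with centring, −0.37 after quantile normalization and −1.39 with the homopolymer genes left out (limma adjusted p = 0.354), not called under any of them. In WT it was −0.03 (SE 0.79), and 0.45 with the homopolymer genes left out. The difference between genotypes was −1.96 (SE 1.11, limma adjusted p = 0.367). It was −0.16 with centring and −0.13 after quantile normalization. With the homopolymer genes left out, the changes were 0.45 in WT and −1.39 in Bcl2, neither called. The difference between the genotypes was not called there either. An estimated 16 to 443 reads stood behind a value, the fewest in library 7.

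Lgals3 (ENSMUSG00000050335, chromosome 14, 47367751 to 47386160) encodes galectin-3, a sugar-binding protein that can bridge a target and a phagocyte. Its level was 102, 377 and 272 TPM in BM WT, 323, 253 and 267 TPM in PT WT, 220, 117 and 332 TPM in BM Bcl2 and 263, 284 and 262 TPM in PT Bcl2. On the deposited scale the PT values lay between 253 and 323 TPM in both genotypes and within the wider range of BM. The mean change was 0.37 (95% interval −0.44 to 1.19, limma adjusted p = 0.518). With the homopolymer genes left out, Lgals3 was at 311 to 762 TPM in PT and 134 to 482 TPM in BM, with overlap in both genotypes. The mean change was 1.026 on that scale (limma adjusted p = 0.0996) and 1.06 with centring (adjusted p = 0.124). After quantile normalization it was 0.35 (limma adjusted p = 0.567), and none of these was called. Tyrobp, Btk and Lgals3 shared no run of 31 bases with another gene.

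**Figure D3:**
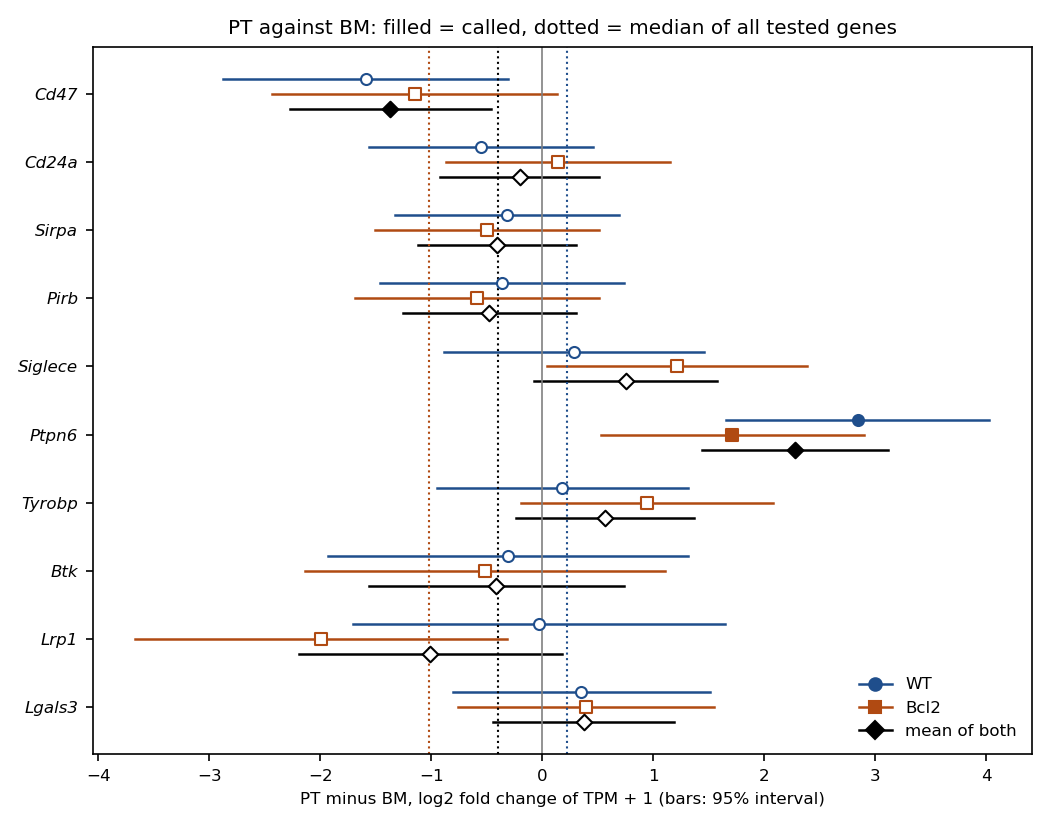
Log2 fold change from BM to PT of the 10 genes with 95% intervals, for WT (circles), Bcl2 (squares) and the mean of both (diamonds), filled where called, with dotted lines at the medians of all tested genes (0.22, −1.02 and −0.40). Ptpn6 is filled in all 3 comparisons and Cd47 in the mean alone.

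The transgene comparison gave no call among the members. From WT to Bcl2 the 10 log2 fold changes ran from −0.75 (Cd24a) to 0.87 (Lrp1) in BM, where 0.0223% of tested genes were called, and from −1.09 (Lrp1) to 0.54 (Siglece) in PT, where 0.0297% were called. Over both tissues they ran from −0.40 (Cd24a) to 0.27 (Btk). No gene in the table was called there (0%) by limma. An unadjusted p under 0.05 was found for 634 genes, which is 4.71% of those tested, and no member reached that level in any of the 3 comparisons. The interaction was called for 0.0149% of tested genes and for no member, the smallest unadjusted p being 0.0981 for Lrp1. The intervals are wide: for Cd47 the difference over both tissues was 0.21 (95% interval −0.70 to 1.12). It was 0.05 (−0.67 to 0.76) for Sirpa and 0.25 (−0.58 to 1.09) for Ptpn6. Differences of any size within these intervals remain compatible with the values.

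The members were set beside lists of genes of the same pathways, whose counts are given against the shares of all genes called in the mean of both genotypes (5.13% higher, 14.1% lower). Over all lists, with each gene counted once, 33 genes were called, 17 higher and 16 lower. All 17 higher genes stayed called with centring and with the homopolymer genes left out, whereas 5 and 3 of the 16 lower genes did. Both scalings raised the median change of all tested genes, from −0.40 to 0.29 and 0.06. They thereby favour higher calls over lower ones, so these counts do not show which direction is firmer. After quantile normalization 16 and 11 stayed called. Newly called list genes numbered 11 with centring, 13 with the homopolymer genes left out and 5 after quantile normalization. Without each library in turn, 9 of the 17 and 8 of the 16 stayed called in every case. The higher ones were B2m, Cd274, Pdcd1lg2, Lilrb4, Cd300lf, Cd300a, Ptpn6, Trem1 and Sirpb1c. The lower ones were Milr1, Ceacam1, Clec4a2, Card9, Trem3, Anxa1, Rac2 and Dock1. The other 16 lost the call without at least 1 library, H2-K1 only without library 7 and Fcgr2b only without library 10, and Ptpn11, Lcp2, Lrpap1 and Lgals1 without any of 9.

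Of 12 tested ligand genes, 4 rose and 1 fell, with a median of 0.83 against −0.40 for all genes. Cd274, which encodes PD-L1, stood at 20.1, 11.9 and 16.2 TPM in BM WT, 231, 150 and 128 TPM in PT WT, 6.48, 23.9 and 10.04 TPM in BM Bcl2 and 250, 283 and 196 TPM in PT Bcl2. All PT libraries lay above all BM libraries, and the change was called in WT (3.31), in Bcl2 (4.24) and over both (3.77, SE 0.39, limma adjusted p = 4.26e-05). Cd274 thus went from 0.0212 to 0.0658 of the Cd47 level in BM to 0.629 to 3.27 of it in PT. Pdcd1lg2, which encodes PD-L2, was listed at 0 in all BM libraries and at 0.354 to 8.59 TPM in PT. B2m rose by 1.11 and H2-K1 by 1.22, both of class I molecules that PIR-B reads.

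Of 20 tested genes listed as inhibitory receptors, 6 rose and 4 fell, with a median of −0.36. The list was made by name, and how each receptor signals in the mouse was not tested. Cd300a, a receptor for lipids of dying cells, was at 20.2 to 42.9 TPM in BM and at 99.0 to 467 TPM in PT, and rose in WT (2.87), in Bcl2 (2.55) and over both (2.71, SE 0.40, limma adjusted p = 0.000478). Lilrb4 (1.63), Cd300lf (1.74), Cd33 (1.53), Siglecf (1.81) and Fcgr2b (1.47), the inhibitory receptor for immunoglobulin G, rose over both genotypes. Siglecf is also an eosinophil marker, and that list of 4 summed to 1.63 to 9.63 TPM in BM and 5.84 to 23.2 TPM in PT, with Epx at 0 throughout and its part in the result not tested. Clec4a2 (−2.86), Milr1 (−2.75), Clec12a (−1.92) and Ceacam1 (−1.70) fell. Of these, Clec12a and Ceacam1 lost the call with centring, and with the homopolymer genes left out Milr1 did as well. Lilrb4, at 569 to 5095 TPM, and Cd33 were the most abundant of the list, and Pdcd1, which encodes PD-1, was listed at 0 in every library.

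Of the 12 tested phosphatases and adaptors downstream of these receptors, Ptpn6 alone was called higher and Ptpn11, which encodes SHP-2, alone lower. Ptpn11 was at 4.51 to 41.8 TPM in BM and 2.96 to 9.92 TPM in PT, with overlapping values, and fell by 1.70 (SE 0.56, limma adjusted p = 0.0458), a call lost with centring, with quantile normalization and without the homopolymer genes. The list median was 0.14. Ptpn6 (mean 483 TPM) and Fyb (336 TPM) were its most abundant genes, and Dok1 (2.51 TPM) and Csk (11.9 TPM) its least.

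On the activating side, 2 of 17 tested ITAM adaptors and kinases rose and 3 fell. Lcp2 (1.23) and Pik3ap1 (1.74) rose, while Plcg2 (−1.57), Hcst (−2.68), which encodes DAP10, and Card9 (−2.55) fell. With the homopolymer genes left out, only Lcp2 and Pik3ap1 of these stayed called, and Syk, Tyrobp, Fcer1g, Lyn, Fgr and Vav1 were called as well. Of 10 tested activating receptors, most of which pair with DAP12, Trem1 (2.43), Cd300ld (2.24), Sirpb1c (2.00) and Cd300lb (1.67) rose, and Trem3 (−2.35) and Clec5a (−2.13) fell. Trem1 was at 577 TPM and Sirpb1c at 657 TPM in library 12, the highest of any library. The 4 mast cell markers summed to 633 TPM in that library and to 25.8 and 57.8 TPM in the other PT WT libraries. Their sums were 1.43 to 37.0 TPM in PT Bcl2 and 2.88 to 9.94 TPM in BM. Of these markers 3 were called higher in PT over both genotypes, and their part in the values of the receptors was not tested.

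Of 11 tested genes around calreticulin and LRP1, 2 fell over both genotypes and none rose on the deposited scale. Anxa1, which encodes annexin A1, was at 1342 to 4534 TPM in BM and at 370 to 1298 TPM in PT and fell by 2.03. Lrpap1, a chaperone of LRP1, fell by 1.85. In the MRP8-Bcl2 comparison, Calr, which encodes calreticulin itself, fell by 2.18 (limma adjusted p = 0.0179), from 56.3, 119 and 164 TPM to 20.6, 15.0 and 34.5 TPM, while in WT it was at 77.4, 30.5 and 48.1 TPM in BM and 55.5, 58.1 and 79.6 TPM in PT. Pros1, which bridges to MERTK, also fell in Bcl2 (−2.27). The difference of Calr between the genotypes was not called (interaction −2.56, SE 0.82, limma adjusted p = 0.233). With centring, the calls of Anxa1 and Lrpap1 over both genotypes and those of Calr and Pros1 in Bcl2 were lost. Anxa1 and Lrpap1 also lost theirs with the homopolymer genes left out, and Lrpap1 after quantile normalization. Tulp1 had means of 22.4 TPM in BM WT, 58.6 TPM in PT WT, 26.2 TPM in BM Bcl2 and 49.2 TPM in PT Bcl2. Over both genotypes it was called with centring, after quantile normalization and with the homopolymer genes left out. Of 20 tested engulfment genes Rac2 (−1.29) and Dock1 (−1.99) fell and none rose on the deposited scale. Of 6 tested galectins Lgals1 (−2.69) fell, a call lost with centring, after quantile normalization and with the homopolymer genes left out. Rac2 lost its call with centring and with the homopolymer genes left out. Under these, Itgam was called, with higher means in PT in both genotypes. Myh9, with lower means in PT, was called after quantile normalization. In the Bcl2 comparison Vav3 (−2.79) and Rac1 (−1.28, but 0.31 with centring) were also called lower, as were 19.1% of all genes.

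The most abundant genes of these lists, by mean TPM over the libraries, were B2m (2669) and H2-D1 (799) among the ligands, Fcer1g (1975) and Tyrobp (1537) among the adaptors, and Clec5a (186) and Cd300ld (155) among the activating receptors. Around calreticulin they were Anxa1 (1873) and Hsp90b1 (268), in engulfment Itgam (917) and Itgb2 (357), and among the galectins Lgals3 (256) and Lgals8 (72.0). The lowest were Sftpd and Qpct, Src and Blnk, Trem2 and Siglech, Gas6 and C1qa, Megf10 and Tyro3, and Lgals2 and Lgals7 in the same order, at means of 0 to 13.9 TPM, and Cd200r1 (6.45) was next to Pdcd1 among the inhibitory receptors.

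**Figure D4:**
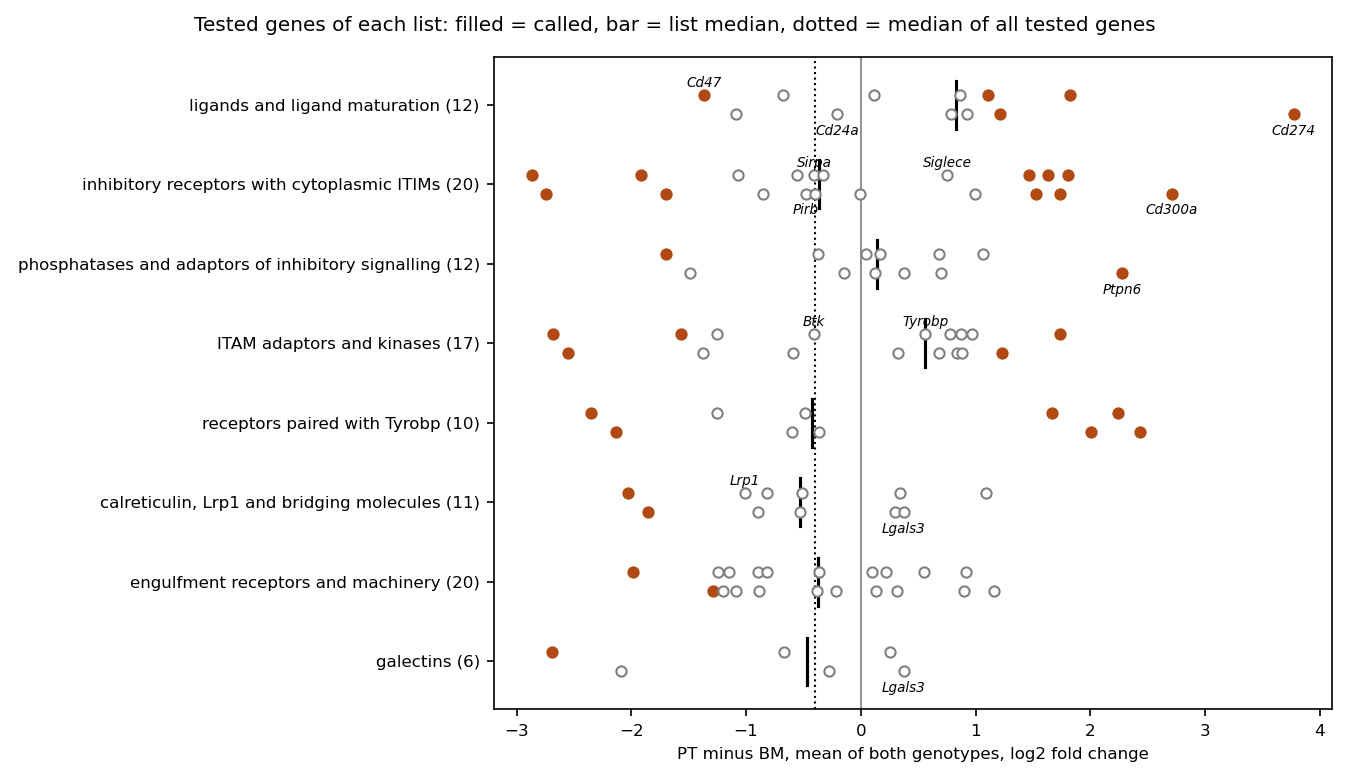
Log2 fold change from BM to PT over both genotypes of every tested gene of 8 lists, filled where called, with a bar at each list's median and a dotted line at the median of all tested genes (−0.40). Ptpn6, Cd274 and Cd300a are the called genes farthest to the right in their lists, and Cd47 is the only called ligand on the left.

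The genes most like a member over the 12 libraries were sought among 6141 genes with a mean of at least 10 TPM, as a description only, since all values of a library share its depth and scaling. Ptpn6 was followed most closely by Dusp5 (Pearson r = 0.951), Kpna4 (0.936) and Spag9 (0.936). Cd47 was followed by Ndufb9 (0.949), Acsl1 (0.944) and Pfn1 (0.941), Sirpa by Nubp2 (0.925), Dynlrb1 (0.903) and Rfc2 (0.894), and Tyrobp by Thbs1 (0.932), Bsdc1 (0.913) and Asprv1 (0.910).

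**Figure D5:**
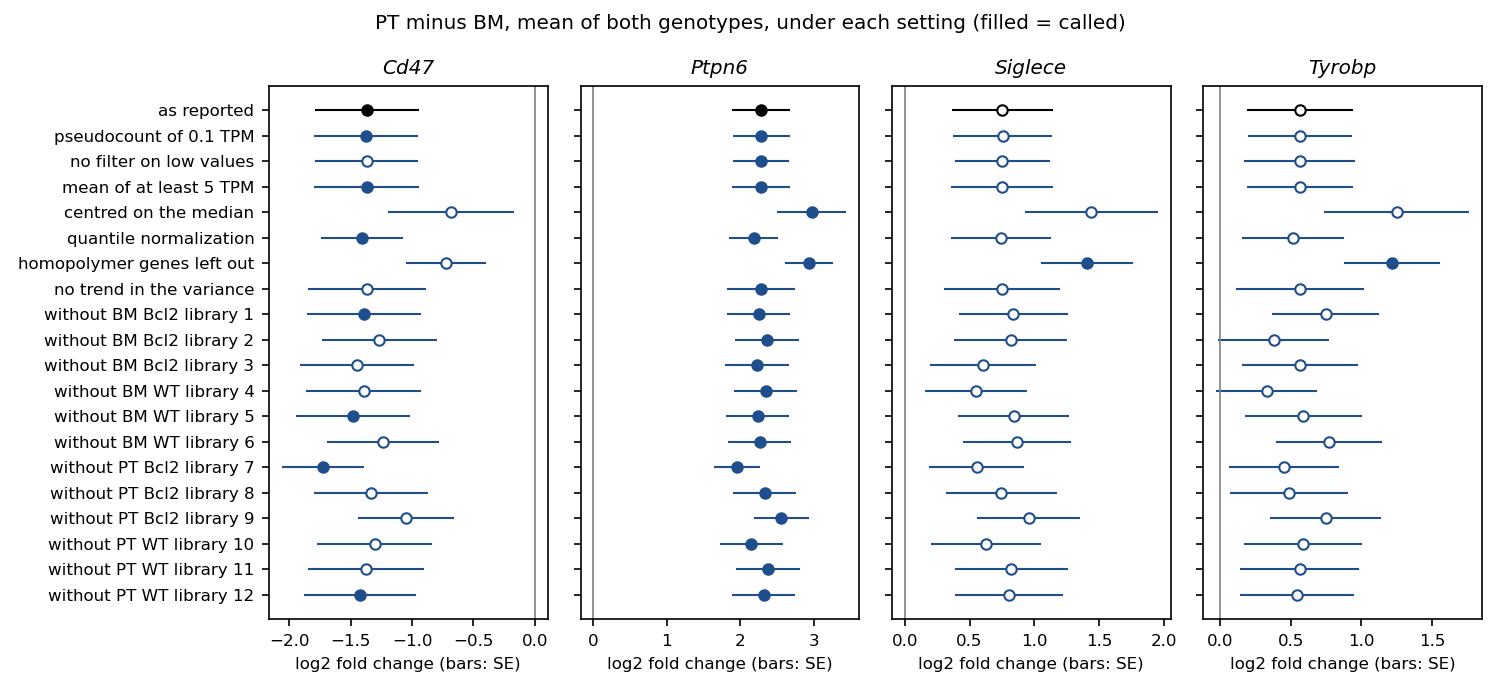
Log2 fold change from BM to PT over both genotypes, with its SE, for Cd47, Ptpn6, Siglece and Tyrobp under each setting and without each library, filled where called. Ptpn6 is filled throughout, and the axis of each panel differs. Centring and leaving out the homopolymer genes move all 4 genes upward, Cd47 to −0.68 and −0.72.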

How the data were processed

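RNA of sorted cells was sequenced in 12 libraries, 3 for each of 4 groups. The authors deposited log2(TPM + 1) values per gene, made with AltAnalyze, and from these TPM was computed. Read counts were not used here. The deposited columns name a group and a library but no mouse, and 2 further columns of per-sample values were not used. The authors' own fold changes and p-values were not used. TPM gives relative levels, so genes that take a large share lower all others. An approximate number of reads behind a value was estimated from the steps between low TPM values.

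A limma fit (version 3.58.1, R 4.3.3) of the 4 groups, with a trend in the variance, was made on log2(TPM + 1), a pseudocount of 1 TPM, for the 13456 genes that reached 1 TPM in 3 or more libraries. P-values were adjusted by Benjamini-Hochberg over all of them. Calls needed an adjusted p under 0.05 together with a 2-fold or larger change. The interaction had no fold minimum. Fold changes on this scale understate those of low genes. The exact permutation tests used 400 arrangements within strata. The fit was tested on simulated data.

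The members, the gene lists and the tests were chosen with earlier results of these data known. All members are named. A list gene was named where it was called in a comparison, was among the 2 highest or 2 lowest of its list by mean TPM, or shares sequence with a member. Some genes called only under another scaling were named as well. For likeness, the 3 genes with the highest Pearson r were named. Alternatives were another pseudocount, other filters, scalings, variance and fold settings, 2-group fits, each library left out, and sums with related rows, of which the sums for Cd47 and Ptpn6 were added after seeing the data.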

Additional observations from a re-analysis of the deposited data

Results flagged for a closer look

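Siglecg, which encodes an inhibitory lectin that reads CD24, was called in neither genotype, but its libraries were ordered in opposite ways. Siglecg stood at 5.17, 6.44 and 5.11 TPM in BM WT and at 7.88, 9.47 and 16.7 TPM in PT WT, so that every PT library lay above every BM library, as for 14.9% of tested genes. In MRP8-Bcl2 mice it was at 14.9, 6.58 and 39.1 TPM in BM and at 0.879, 5.68 and 5.57 TPM in PT. Every PT library there lay below every BM library, as for 32.6% of tested genes. The share of genes that show both orders was not computed. The difference of the changes was −2.81 on the log2 scale (limma adjusted p = 0.258) and was not called, beside a median of −1.18 over all tested genes. The 6 B cell markers summed to 24.8 to 94.9 TPM in BM WT and 94.9 to 250 TPM in PT WT. In MRP8-Bcl2 mice they summed to 21.3 to 103 TPM in BM and 37.3 to 159 TPM in PT. Over both genotypes 2 of them were called higher in PT, and their part in the Siglecg values was not tested.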

How the results depend on the processing

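Of 1468 values of the members under the alternatives, 1436 kept their side of the threshold, 32 did not, and none reversed as a called value. Most of the 1436 were never called, and 132 uncalled values changed sign. The call of Cd47 over both genotypes changed in 8 of 12 fits without 1 library and in 4 of 9 other settings. In WT, 1 member was called from BM to PT, against 0 with libraries centred on their median, 2 after quantile normalization, and 0 to 1 without each library in turn. In Bcl2, 1 was called, against 0 with no filter on low values, with no trend in the variance and in a fit of the 2 groups compared, 3 with centring and 3 with the homopolymer genes left out, and 0 to 1 without each library. Over both genotypes, 2 were called, against 1 with no filter, with centring and with no trend, 3 with the homopolymer genes left out (Ptpn6, Siglece and Tyrobp, with Cd47 lost), and 1 to 2 without each library. No member was called between genotypes or in the interaction under any of them. Rac1, called lower in Bcl2 (−1.28), was at 0.31 with centring. The causes were not tested. In WT, 214 genes were called higher and 164 lower, against 112 and 197 with centring, 233 and 264 after quantile normalization and 479 and 113 with the homopolymer genes left out. In Bcl2, 311 and 2567 were called, against 1636 and 467, 678 and 779, and 565 and 1077 in the same order. No paired analysis was possible because the columns carry no replicate number. Estimated reads, down to 16 for Lrp1 and 18 for Btk, limit these genes most.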
